A study of Mus musculus with 6 samples.

Results

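The genes described here are 10 mouse genes of DNA replication, mitosis, the DNA damage response and DNA repair: Ccne2, Orc3, Mms22l, Smc2, Melk, Nbn, Rad1, Fancg, Xpa and Trp53inp1. They were chosen by function among the genes of chromosomes 4 and 15 whose row names fit the counted reads, out of 56953 rows in the deposited table, and all 10 passed the filter on low counts that left 14550 features. Polyadenylated RNA of tailbuds, the growing posterior end of the embryo, was sequenced at embryonic day 9.5 from 3 wild-type libraries and from 3 libraries of embryos homozygous for the Fgfr1 allele FCPG (Fgfr1 FCPG/FCPG, called the mutant here). FCPG carries point mutations at receptor residues to which signaling effectors bind. The labels give neither strain nor number of embryos per library, and they place neuromesodermal progenitors (NMPs), somitic mesoderm and intermediate mesoderm together in the tissue, so a change in the share of a cell type and a change in RNA per cell cannot be told apart.

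A dividing cell licenses its replication origins with the origin recognition complex, enters S phase under cyclin E and its kinase partner CDK2, and packs its chromosomes for mitosis with condensin. DNA breaks and stalled forks are sensed by the MRE11-RAD50-NBN complex and by the ring-shaped 9-1-1 clamp, and lesions are removed by dedicated pathways such as nucleotide excision repair and the Fanconi anemia pathway for crosslinks. Tailbud progenitors divide while the body axis lengthens, and FGF signaling is known as a mitogenic signal in many cell types. The question put to these genes is whether those of proliferation and repair shift together when the receptor's effector binding is disabled.

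Promoters of 7 of the 10 genes were found by symbol in a RefSeq table (build GRCm38.p6, older than the mm39 named for the mapping, 250 bases before to 50 after the start site). The promoters of Ccne2, Nbn and Trp53inp1 were not found there, so these genes were not searched for motifs. Those of Orc3, Fancg and Smc2 are shown because they hold letters of motifs known from cell cycle promoters. Capitals mark the E2F letters (TTTGGCGC, TTTCCCGC, TTTCGCGC or TTTGCCGC) in Orc3 and Fancg, and the CHR letters (TTTGAA, or TTCAAA when read from the other strand) in Smc2, both strands being searched.
Orc3, chr4:34614893-34615192, minus strand: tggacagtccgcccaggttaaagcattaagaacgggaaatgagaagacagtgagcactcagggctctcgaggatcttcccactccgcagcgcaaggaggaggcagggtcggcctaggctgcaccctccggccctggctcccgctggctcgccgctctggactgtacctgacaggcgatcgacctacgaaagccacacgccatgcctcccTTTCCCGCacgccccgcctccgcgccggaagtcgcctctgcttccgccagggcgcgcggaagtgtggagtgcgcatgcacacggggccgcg
Fancg, chr4:43010252-43010551, minus strand: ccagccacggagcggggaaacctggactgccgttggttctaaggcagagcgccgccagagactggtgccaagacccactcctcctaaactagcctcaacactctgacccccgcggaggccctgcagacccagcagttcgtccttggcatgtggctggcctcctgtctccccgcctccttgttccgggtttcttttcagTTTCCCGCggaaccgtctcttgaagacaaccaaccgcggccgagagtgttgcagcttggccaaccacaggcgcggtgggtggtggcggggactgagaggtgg
Smc2, chr4:52438971-52439270, plus strand: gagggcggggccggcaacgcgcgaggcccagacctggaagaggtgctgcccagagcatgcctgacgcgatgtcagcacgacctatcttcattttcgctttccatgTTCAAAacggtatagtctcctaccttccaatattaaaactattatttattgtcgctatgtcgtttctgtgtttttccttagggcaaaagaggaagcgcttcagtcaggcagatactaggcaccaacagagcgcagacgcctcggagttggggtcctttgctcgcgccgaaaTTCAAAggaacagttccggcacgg
The E2F letters began 41 bases before the start site in Orc3 and 52 bases before it in Fancg, in both as TTTCCCGC, and 2.3% of the 32851 promoters in the table held any of the 4 words. In Smc2 the CHR letters began 145 bases before and at base 27 after the start site, and 17.9% of all promoters held them. The CCAAT letters, searched on both strands as well, were in the windows of Xpa and Smc2 and in 37.4% of all promoters. These are matches of letters only.

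Library totals ran from 16984568 to 27316475 counts. Names and reads fit over part of the table only, which was examined without the genotype. Of 1088 ubiquitously expressed genes (ribosomal, proteasomal, respiratory chain, splicing and similar families), 379 had at least 10 CPM on average (CPM are counts relative to the library's total), but on 3 stretches of chromosomes 4, 6 and 15 all 61 did, with a median of 345.0 CPM. Elsewhere 318 of 1027 did, and their median was 0.68 CPM. The choice of the stretches itself sets part of this contrast. The names of the tailbud markers T and Fgf8 lie outside the stretches, so the tissue could not be checked by its markers.

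Around the 10 genes, the nearest neighbours listed as ubiquitous by name had from 20.4 CPM (Srsf12, beside Orc3) to 2706.1 CPM (Anp32b, beside Xpa). As the stretches were drawn from the levels of such genes, this describes the places of the 10 genes and is no separate check of their names. Ndufaf6, beside Ccne2 and Trp53inp1, had 46.5 CPM. Fancg lay between Vcp at 2404.1 CPM and Stoml2 at 591.1 CPM, and Rad1, the only one of the 10 on chromosome 15, lay between Brix1 at 345.0 CPM and Tars at 583.9 CPM. For some genes these neighbours were distant, as for Nbn, where their starts lay 4.76 and 8.94 Mb from its own. Reads of Ccne2 and Xpa may be mixed with those of a neighbour. Ccne2 shares 17.42% of its exon bases with Ints8 on the opposite strand and Xpa 4.07% with Ncbp1, and the strand setting of the counting is not given in the sources used here.

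**Figure D1:**
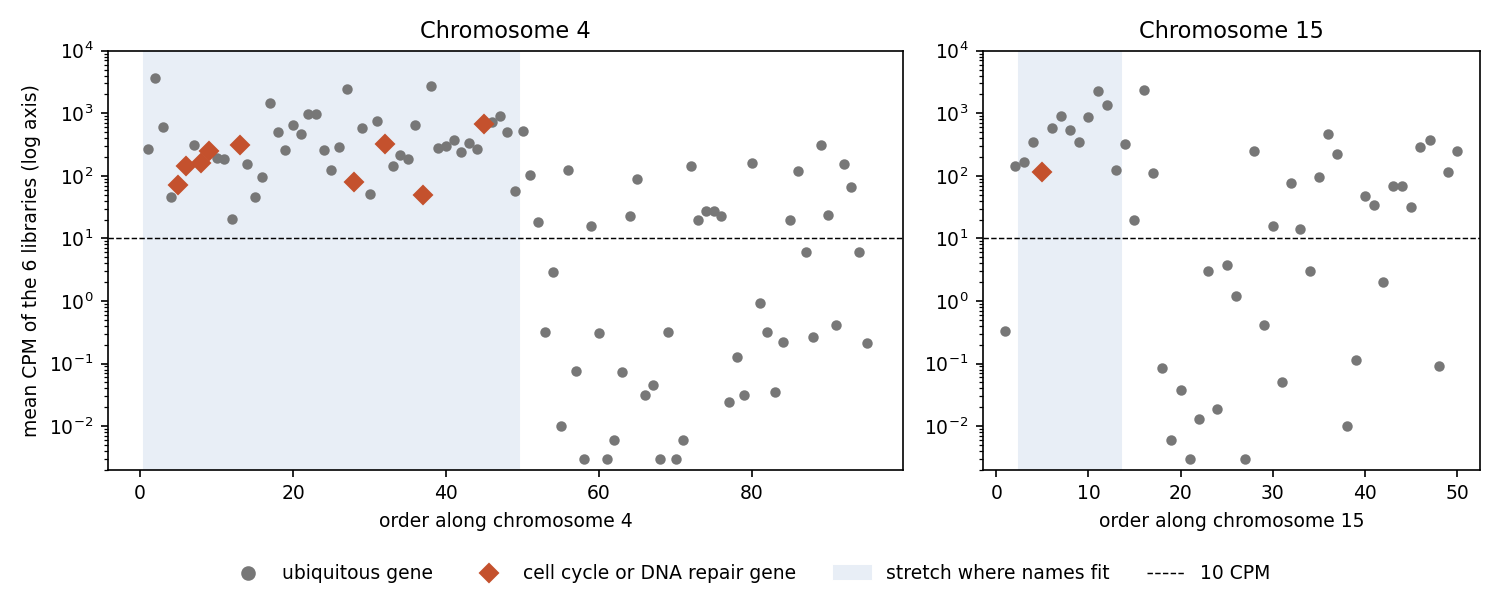
Mean level over the 6 libraries (CPM, log axis, values under 0.003 drawn at 0.003) of ubiquitous genes and of the 10 cell cycle and DNA repair genes, in their order along chromosomes 4 and 15. In the shaded stretches all ubiquitous genes lie above the dashed line at 10 CPM, and the 10 genes lie among them; outside, many ubiquitous genes fall far below it.

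None of the 10 genes passed the test between genotypes at an adjusted p below 0.05 (edgeR quasi-likelihood test, Benjamini-Hochberg over all 14550 features). Over all features 4.25% were called higher and 3.67% lower in the mutant, and among the 574 tested features on the stretches 9.23% and 4.18%, so at 10 genes a count of 0 is near the background. At an unadjusted p below 0.05 there were 3 of the 10, Ccne2, Orc3 and Xpa, against 25.6% of all features. The share was 30.6% of the features in the same range of mean CPM, and on the stretches it was 201 of the 574 features. The DESeq2 Wald test and limma-voom called 0 of the 10 genes as well. The estimates were small: 7 were positive and 3 negative, with a median log2 fold change (mutant over wild type) of 0.08. That median was 0.09 over the 574 tested features on the same stretches, 0.03 over the 2829 features in the same range of mean CPM and -0.01 over all features. The median of their absolute log2 fold changes was 0.15, and it was 0.15 also over the features in that range of mean CPM. For 9 of the 10, the exception being Trp53inp1, the 95% interval of the difference lay within a 1.5-fold change in either direction. These intervals were not adjusted for the number of genes. The share of all features with such an interval is not given here, so the count is not read as particular to the 10 genes.

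**Figure D2:**
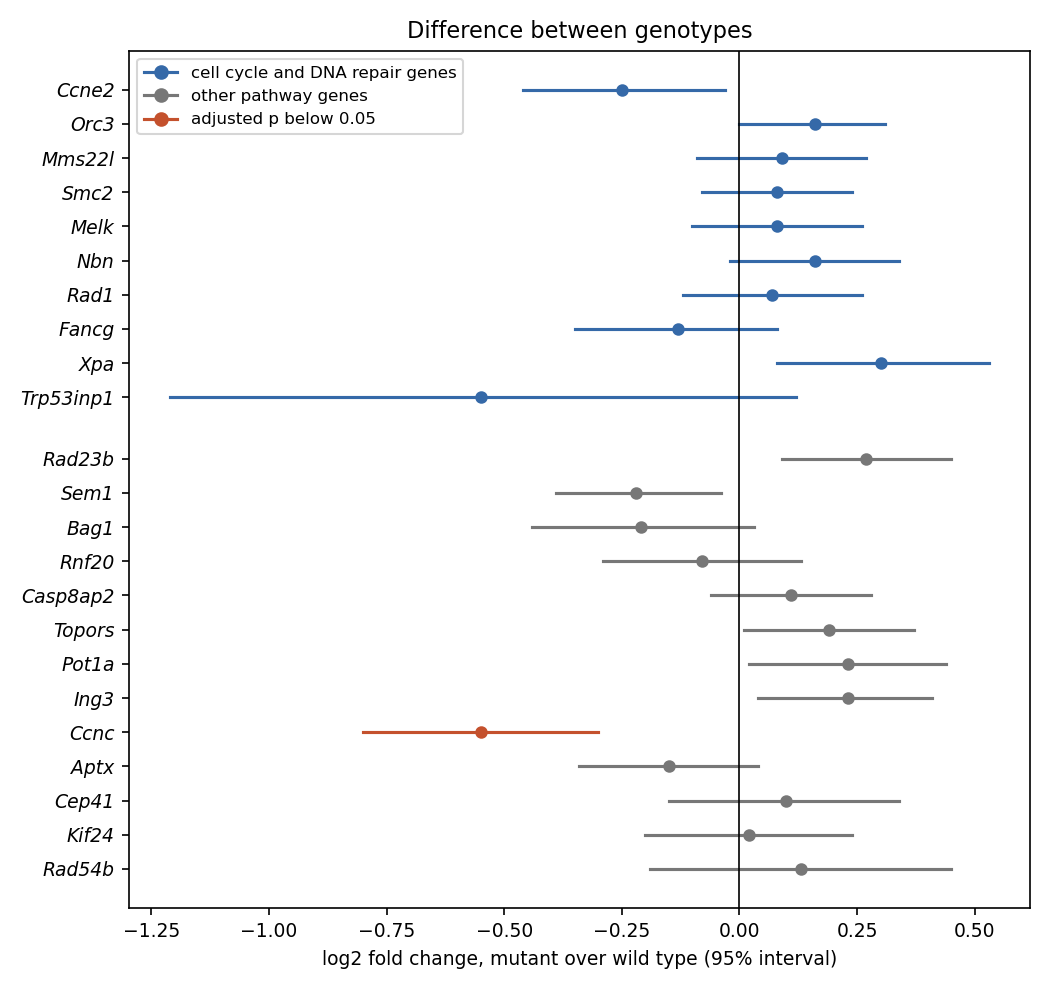
Log2 fold change of mutant over wild type with its 95% interval (edgeR, 3 libraries per group) for the 10 genes and for 13 other genes of the same pathways. Only Ccnc, at -0.55, passed at an adjusted p below 0.05; among the 10 genes the interval of Trp53inp1, from -1.21 to 0.12, is the widest.

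Genes of S-phase entry and replication had estimates of both signs. Ccne2 encodes cyclin E2, which activates CDK2 at the entry into S phase. Its level was 142.1, 151.6 and 171 CPM across the wild-type replicates 1 to 3, against 132.1, 125.1 and 134.8 CPM across the mutant ones. Every mutant library lay below every wild-type library, with the gap between mutant replicate 3 and wild-type replicate 1 smaller than the spread within the wild type. The log2 fold change was -0.25 ± 0.09 (SE), with a 95% interval of -0.46 to -0.03 and an adjusted p of 0.143 (edgeR).

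Orc3, a subunit of the origin recognition complex, had 293.2, 287.6 and 295 CPM in the wild-type libraries and 334.1, 318.4 and 323.7 CPM in the mutant ones. The groups did not overlap, here with the mutant on the higher side, and the wild-type libraries lay within a few CPM of each other. The log2 fold change was 0.16 ± 0.07 (SE), a difference of 11.5%, with an adjusted p of 0.186 (edgeR). Orc3 and Fancg, whose promoters hold the same E2F letters, had estimates of opposite sign, neither past the threshold. Whether E2F acts on either gene was not tested.

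Mms22l, which works with TONSL in the recovery of stalled and broken forks, had 245.9, 238.3 and 243.8 CPM in the wild-type libraries and 252.9, 244.6 and 278.1 CPM in the mutant ones. Mutant replicate 2 lay inside the wild-type range, and the log2 fold change was 0.09 ± 0.08 (SE, adjusted p = 0.503 by edgeR).

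The genes of mitosis had estimates near 0. Smc2, the ATPase core subunit shared by condensin I and II, had the most counts of the 10 genes, between 12701 and 18489 per library. Its level was 636.5, 680.5 and 682 CPM in the wild-type libraries and 719.9, 715.1 and 677.8 CPM in the mutant ones, so that mutant replicate 3 fell among the wild-type libraries. Its 95% interval, -0.08 to 0.24 on the log2 scale, was among the narrowest. Melk, a kinase whose transcript is abundant in dividing progenitors, had 321.9, 316.3 and 318.2 CPM in the wild-type libraries and 358.9, 307.4 and 343.7 CPM in the mutant ones. The mutant libraries lay on both sides of the wild-type values, and the log2 fold change was 0.08 ± 0.08 (SE, adjusted p = 0.581 by edgeR).

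Among the genes that sense DNA damage, Nbn encodes nibrin, the subunit of the MRE11-RAD50-NBN complex that recruits the kinase ATM to breaks. Its level was 150.5, 151 and 161.2 CPM in the wild-type libraries and 170.1, 165.1 and 181 CPM in the mutant ones. The groups did not overlap, and the log2 fold change was 0.16 ± 0.08 (SE), with a 95% interval of -0.02 to 0.34 (adjusted p = 0.248 by edgeR). Rad1, a subunit of the 9-1-1 clamp that activates the kinase ATR, had 113.5, 113.4 and 115.7 CPM in the wild-type libraries and 127.7, 118.5 and 113.3 CPM in the mutant ones. Mutant replicate 3 was the lowest of all 6 libraries and mutant replicate 1 the highest (adjusted p = 0.638 by edgeR).

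The repair genes Fancg and Xpa had estimates of opposite sign. Fancg, a subunit of the Fanconi anemia core complex that acts on crosslinks between DNA strands, had 79.1, 82.2 and 92.7 CPM in the wild-type libraries and 75.8, 81.0 and 74.6 CPM in the mutant ones. The groups overlapped, since mutant replicate 2 lay above wild-type replicate 1, and the log2 fold change was -0.13 ± 0.10 (SE, adjusted p = 0.418 by edgeR). Xpa, which verifies the lesion in nucleotide excision repair, had the lowest adjusted p of the 10 genes. Its level was 44.3, 45.1 and 42.8 CPM in the wild-type libraries and 52.3, 60.2 and 50.4 CPM in the mutant ones. All mutant libraries lay above all wild-type libraries, with mutant replicate 2 the highest, and the log2 fold change was 0.30 ± 0.10 (SE), a difference of 23.2% (95% interval 0.08 to 0.53, adjusted p = 0.0989 by edgeR). Its counts, between 799 and 1324 per library, were the fewest apart from those of Trp53inp1 in mutant replicates 1 and 3. Ccne2, Nbn, Orc3 and Xpa were the 4 of 10 genes whose groups did not overlap, and 31.9% of all features had groups that did not overlap.

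Trp53inp1, a stress protein induced by p53 that takes part in apoptosis and autophagy, varied most between libraries of the same genotype. Its level was 69.7, 73.1 and 109.2 CPM across the wild-type replicates 1 to 3, against 48.1, 85.5 and 39.1 CPM across the mutant ones. Mutant replicates 1 and 3 lay below every wild-type library, while mutant replicate 2 lay above wild-type replicates 1 and 2. The log2 fold change was -0.55 ± 0.29 (SE), with a 95% interval of -1.21 to 0.12 (adjusted p = 0.281 by edgeR). Without mutant replicate 2 the log2 fold change was -0.93 and passed (adjusted p = 0.0482 by edgeR), and without wild-type replicate 3 it was -0.31. It passed also without the low-count filter (adjusted p = 0.000952 by edgeR), though the estimate hardly moved, at -0.53. That fit called 1352 features higher and 1145 lower over all features, against 618 and 534 with the filter. Over all 14 alternatives the adjusted p of Trp53inp1 ran from 0.000952 to 0.633.

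**Figure D3:**
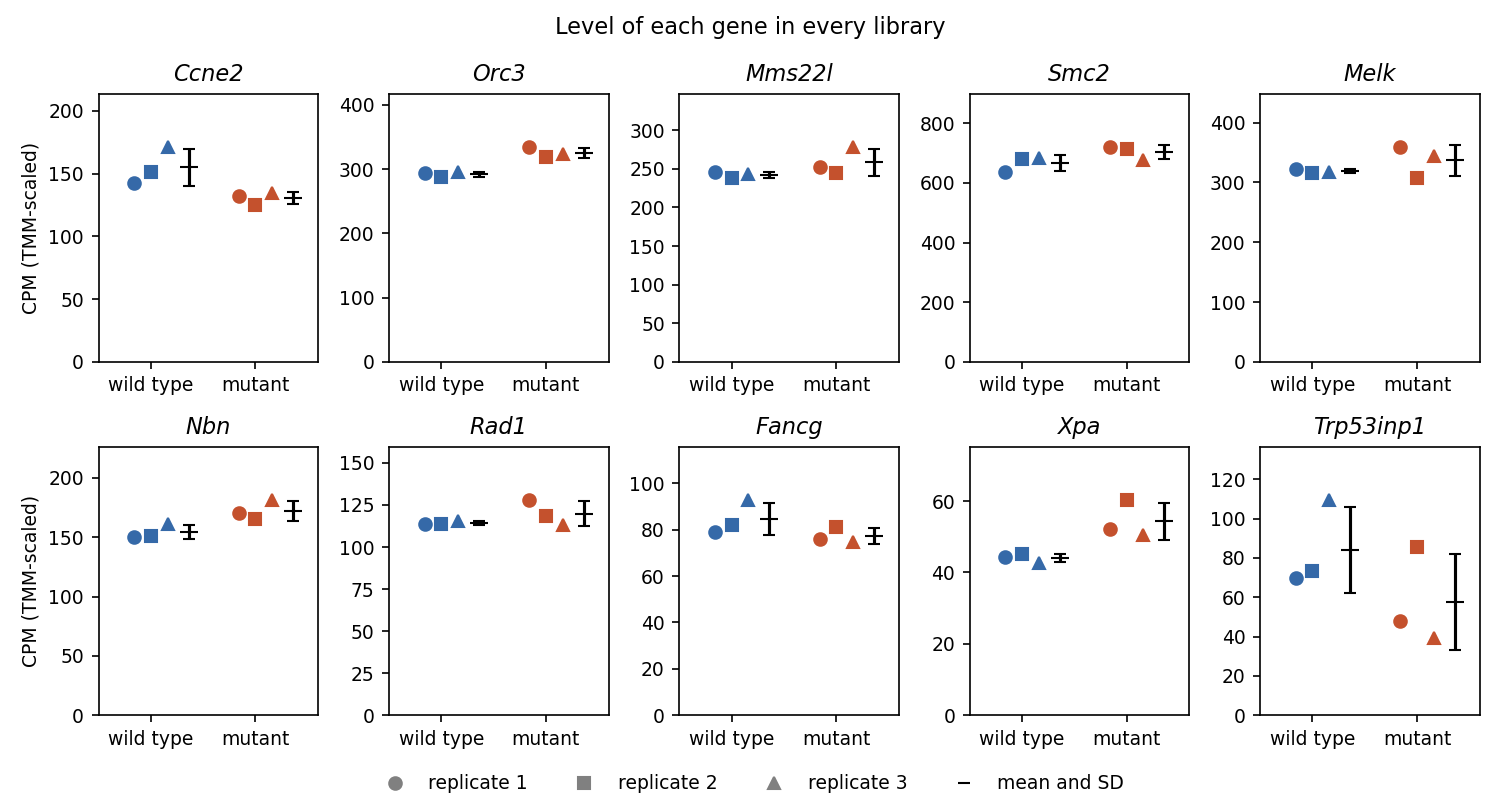
Level of each of the 10 genes (CPM, TMM-scaled, axes from 0) in the 3 wild-type and 3 mutant libraries, with the mean and SD of each group. Ccne2, Orc3, Nbn and Xpa have groups that do not overlap, and Trp53inp1 has the widest spread, from 39.1 to 109.2 CPM.

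The spread between replicates differed among the genes. The coefficient of variation (SD over mean, n = 3) in the wild type was 0.9% for Melk, 1.2% for Rad1, 1.3% for Orc3 and 1.6% for Mms22l, and it was 26% for Trp53inp1. In the mutant it was 7.9% for Melk, 6.1% for Rad1, 2.5% for Orc3 and 6.8% for Mms22l, and 42.7% for Trp53inp1. Melk, Rad1, Orc3 and Mms22l had the lowest values in the wild type. From wild type to mutant it also rose for Nbn (3.9% to 4.7%) and Xpa (2.7% to 9.6%). It fell for Ccne2 (9.5% to 3.9%), Fancg (8.4% to 4.4%) and Smc2 (3.9% to 3.3%). Over the features in the same range of mean CPM, the median coefficient of variation was 5.6% in the wild type and 8.7% in the mutant. No test of this spread was made, as 3 libraries a group give it little precision.

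Per kilobase of exon, Smc2 had the highest wild-type level, at 122 ± 4.71 CPM per kb (SD, n = 3), followed by Melk at 107 ± 0.955 and Nbn at 60.9 ± 2.39 CPM per kb. Orc3 and Ccne2, at 48.0 ± 0.636 and 44.3 ± 4.22 CPM per kb, differed by less than the SD of Ccne2, and Mms22l followed at 38.0 ± 0.614 CPM per kb. Xpa and Fancg, at 23.3 ± 0.618 and 22.3 ± 1.86 CPM per kb, differed by less than the SD of Fancg. Rad1 at 15.4 ± 0.179 and Trp53inp1 at 13.0 ± 3.38 CPM per kb were the lowest and differed by less than the SD of Trp53inp1. Exon lengths were those of GENCODE M21, whose build differs from the one used for mapping, and count all annotated exons of a gene.

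In every library, deviations of the 10 genes held both signs. Relative to the wild-type mean of each gene on the log2 CPM scale, 7 of the 10 were higher in mutant replicate 1, 7 in mutant replicate 2 and 6 in mutant replicate 3, but so were 8 in wild-type replicate 3. The mean deviation over the 10 genes was -0.05, -0.03 and 0.08 in wild-type replicates 1 to 3 and -0.01, 0.05 and -0.06 in mutant replicates 1 to 3, so the genotypes overlapped. The median deviations, which weigh Trp53inp1 less, were -0.02, -0.02 and 0.03 in the wild type and 0.13, 0.06 and 0.07 in the mutant, and here the groups did not overlap. The wild-type values are deviations from their own mean, which holds them small. Over all features the median deviation of a library lay between -0.007 and 0.004. The median log2 fold change was 0.09 over the tested features on the stretches, against 0.08 for the 10 genes, so a shift particular to them is not shown. Smc2, Orc3 and Nbn were above their wild-type mean in all 3 mutant libraries, as were Xpa and Mms22l, while Ccne2 and Fancg were below it in all 3.

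**Figure D4:**
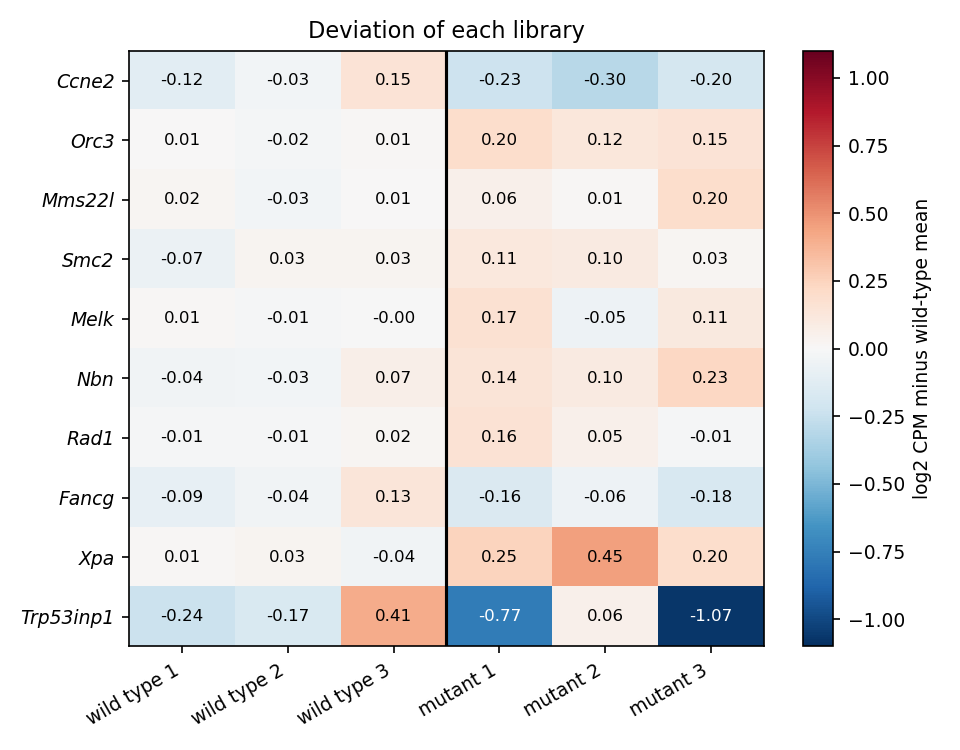
Log2 CPM of each of the 10 genes in each library minus that gene's wild-type mean. Mutant columns hold both signs: Xpa reaches 0.45 in mutant replicate 2, and Trp53inp1 reaches -0.77 and -1.07 in mutant replicates 1 and 3.

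Other genes of the same pathways were taken from 5 lists, of replication and cohesion, mitosis, damage signaling with break repair, excision with crosslink repair, and p53 with apoptosis. Together they name 220 genes, of which 23 lie on the stretches, the 10 genes above and 13 others, all tested. Of these 13, 1 was lower and 0 were higher in the mutant by edgeR, and their median log2 fold change was 0.10. These counts stand beside the 4.18% of features on the stretches called lower and 9.23% called higher, and the median beside 0.09 over those features. At an unadjusted p below 0.05 there were 6 of the 13, against 201 of the 574 features on the stretches and 25.6% of all features. For 12 of the 13 the 95% interval lay within a 1.5-fold change. The share of all features with such an interval is not given here either.

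Ccnc fell in the mutant. It encodes cyclin C, a subunit of the kinase module of Mediator, which regulates transcription. Its level was 105.2, 115.7 and 132.8 CPM across the wild-type replicates 1 to 3, against 76.7, 87.1 and 78.2 CPM across the mutant ones. All mutant libraries lay below all wild-type libraries, and the log2 fold change was -0.55 ± 0.11 (SE, 95% interval -0.80 to -0.30, adjusted p = 0.0249 by edgeR). The call was lost without wild-type replicate 2 (adjusted p = 0.105), without wild-type replicate 3 (0.0938), without mutant replicate 1 (0.0784) and with a term for embryo sex (0.0657), all by edgeR, with log2 fold changes of -0.56, -0.45, -0.50 and -0.52. Over its 14 alternatives the adjusted p ran from 0.000459 to 0.105. Ccnc shares 5.4% of its exon bases with Tstd3 on the opposite strand, which had a mean of 49.5 CPM.

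The most abundant of the 13 was Rad23b, a partner of XPC in lesion recognition during nucleotide excision repair. Its level was 1274, 1273 and 1278 CPM in the wild-type libraries and 1627, 1395 and 1602 CPM in the mutant ones. The groups did not overlap, and the log2 fold change was 0.27 ± 0.08 (SE, adjusted p = 0.0701 by edgeR). It passed without mutant replicate 2 (0.35, adjusted p = 0.0159) and without the low-count filter (0.29, adjusted p = 0.0217), both by edgeR. As given above, the fit without that filter called more features in both directions. Over its 14 alternatives the adjusted p of Rad23b ran from 0.0159 to 0.225.

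The others did not pass in any of the 14 alternatives. Topors, a ubiquitin and SUMO ligase that acts on p53, had a log2 fold change of 0.19, Pot1a, which protects telomere ends, 0.23, and Ing3, a subunit of a histone acetyltransferase complex, 0.23. Casp8ap2, which takes part in apoptosis and histone gene expression, had 0.11, and Rnf20, a ligase that ubiquitinates histone H2B, had -0.08. Sem1, a small protein bound to BRCA2 and the proteasome, had -0.22, and Bag1, an HSP70 cochaperone that protects from apoptosis, had -0.21. The remaining 4 lay between -0.15 and 0.13.

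Mitochondrial messenger RNAs and markers of other cell types were set beside these genes. The messenger RNAs encoded in the mitochondrial genome took 10.79% to 13.87% of the counts in the wild type and 5.3% to 6.23% in the mutant. Leaving mitochondrially encoded genes out of the library sizes moved no log2 fold change of the 10 genes by as much as 0.01. The TMM scaling was recomputed in that fit and can itself offset such a change in library size. The part of the mitochondrial messenger RNAs in the values of the 10 genes was therefore not tested. Hemgn, a marker of blood-forming cells, had 103.3, 68.2 and 62.8 CPM in the wild-type libraries and 22.5, 15.9 and 10.7 CPM in the mutant ones, with an adjusted p of 0.00627 (edgeR). Tspan33, also known from red cell precursors, had 58.0 to 79.9 CPM in the wild type and 23.8 to 32.6 CPM in mutant libraries, with an adjusted p of 0.006 (edgeR). Of the 11 blood markers listed, Tmod1 was the only other one on the stretches with enough counts to be tested (6.3 to 16.8 CPM in the wild type and 3.7 to 7.8 CPM in the mutant). Its groups overlapped and it did not pass (adjusted p = 0.249 by edgeR). Of the neural markers, Pou3f2 ran from 4.2 to 11.7 CPM in wild-type libraries and measured 49.8, 305.6 and 20.8 CPM in mutant replicates 1, 2 and 3. It passed with an adjusted p of 0.0411 (edgeR), but in 8 of the 14 alternatives only, with adjusted p up to 0.167. The part of these cell types in the values of the 10 genes was not tested. Y-linked genes marked wild-type replicate 1 and mutant replicates 2 and 3 as male. Chromosome Y was not searched for stretches, so the names of these genes were not checked against the reads. A term for embryo sex assigned in this way moved the log2 fold changes of the 10 genes by at most 0.04, that of Ccne2 to -0.21.

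The direction of the estimate was the same in all 14 alternatives for each of the 10 genes. Leaving out each library in turn gave log2 fold changes of -0.29 to -0.16 for Ccne2, 0.15 to 0.18 for Orc3, 0.13 to 0.20 for Nbn, 0.23 to 0.36 for Xpa and -0.93 to -0.31 for Trp53inp1. For the other 5 they ranged from -0.17 to -0.06 for Fancg and stayed between 0.03 and 0.15 for Rad1, Smc2, Melk and Mms22l. In the authors' deposited table the log2 fold changes of the 10 genes ran from -0.54 for Trp53inp1 to 0.31 for Xpa. The lowest adjusted p of the 10 in the authors' deposited table was that of Xpa, 0.0954.

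**Figure D5:**
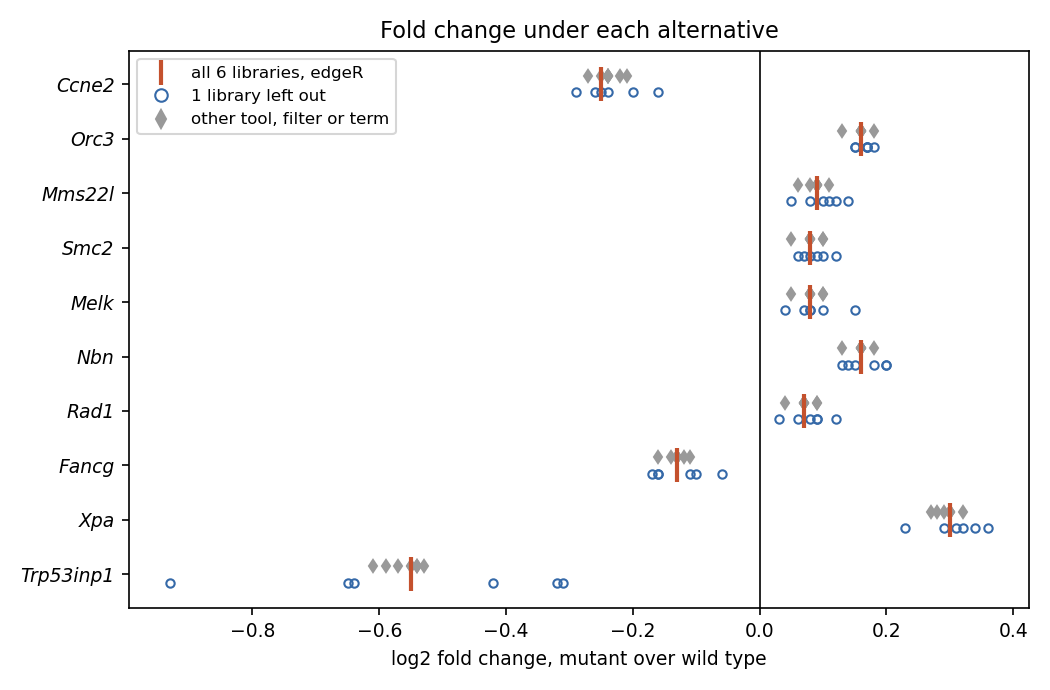
Log2 fold change of each of the 10 genes with all 6 libraries (bar), with 1 library left out (circles) and with another tool, filter, library size or model term (diamonds). No gene crosses 0, and Trp53inp1 moves the most, from -0.55 to -0.93 without mutant replicate 2.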

How the data were processed

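There were 6 tailbud RNA libraries, 3 per genotype. Per the labels' protocols, a strand-specific mRNA kit was used. Mapping used the build mm39 per the submitters' processing notes, which also list DESeq, DESeq2, featureCounts and Bowtie without versions. The authors deposited whole-number counts for Ensembl IDs and, per the file headers a DESeq2 table of mean normalized counts (a signal), log2 fold changes with standard errors, the Wald score and p-values, used here only to set its values beside the others. The genotype letter and replicate number of a column gave its sample; column names also carry 10-5, which is not explained. IDs were cut to 18 characters, which left no duplicates, and 52029 of 56953 matched a symbol, holding 98.7% of all counts.

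Stretches where names fit the reads were found without the genotype, along the gene order of GENCODE M21, which is on an older build. A hidden Markov model set the chance that a ubiquitous gene reached the minimum level to 0.95 inside and 0.25 outside, with a chance of 0.03 of changing state. Runs of at least 6 genes with a posterior above 0.95 were kept where they were found with both 10 and 20 CPM as the minimum. The list of ubiquitous genes was set by family and gene names and was chosen after seeing the data. Whether each gene on it, such as Srsf12, is expressed in all tissues was not checked.

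Libraries were compared with edgeR 4.0.16 (R 4.3.3), filterByExpr by group, TMM and no covariate. CPM use TMM-scaled library sizes, except in the search for stretches, and log2 CPM a prior count of 2. Standard errors come from the F statistic. Tested on simulated data for this comparison (14550 features), the fit recovered 79 of 100 planted 2-fold and 100 of 100 planted 4-fold changes. Of its calls, 3.8% were false. Changes were planted only in features above a minimum mean CPM, with counts drawn from spreads that the same tool had estimated. All other features were left unchanged, and smaller changes were not simulated. Alternatives were DESeq2 1.42.0, limma-voom (limma 3.58.1), size factors, 2 other filters, a replicate block, an embryo sex term, exclusion of mitochondrially encoded genes from library sizes, and each library left out. Nothing in the labels says that libraries came from separate litters, so p-values measure only the spread between these libraries, and litter and genotype may be mixed.

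The 10 genes and the lists were chosen with earlier results of these data known. All 10 are named, and of the lists' other genes on the stretches those called and up to 8 with the highest mean CPM.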

Additional observations from a re-analysis of the deposited data

How the results depend on the processing

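Counts over all features moved with the processing. The DESeq2 Wald test called 967 features higher, against 618 by edgeR. Without the low-count filter 1352 were higher and 1145 lower, against 534 lower before, and with the term for embryo sex 273 and 264. Leaving out each library gave 66 to 783 higher and 63 to 565 lower, with the fewest without wild-type replicate 2; without wild-type replicate 3 there were 163 and 151, without mutant replicate 1 there were 327 and 259, and without wild-type replicate 1 there were 408 higher. The cause was not tested, though these last fits had 1 library less. Of the 10 genes, 0 were called higher in every alternative; 1, Trp53inp1, was called lower without the low-count filter (log2 fold change -0.53) and without mutant replicate 2 (-0.93), a range of 0 to 1 when libraries were left out. The median log2 fold change of the 10 genes stayed between 0.05 and 0.11. Of the 13 other pathway genes, 1 was called higher without the low-count filter and without mutant replicate 2 (0 to 1 over libraries left out), and 0 were lower with the term for embryo sex (0 to 1 over libraries left out). Without Ccne2 and Xpa, an alternative chosen after seeing the data because they share exons with a neighbour, the counts of called genes were 0 and the median was 0.08. Deviations from the group means correlated at -0.23, -0.01 and -0.01 between libraries of the same number, no sign of pairing. A replicate block gave 433 higher and 411 lower features, and 0 of the 10 genes in either direction, with a median of 0.08; Ccnc was called (adjusted p = 0.0394 by edgeR). Each of the 10 genes had at least 799 counts in every library.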

Other observations

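Skp2, the substrate receptor of the ubiquitin ligase that degrades the CDK inhibitor p27, lies before the chromosome 15 stretch and outside it, so its name is less sure. Of the ubiquitous genes before that stretch, Nup155 had 142.8 CPM and Rpl37 0.332 CPM. Skp2 was chosen here after its values were seen. The row held 499.7, 507.1 and 533.1 CPM across the wild-type replicates 1 to 3, against 532, 499.6 and 441.3 CPM across the mutant ones. Mutant replicate 1 lay inside the wild-type range and mutant replicate 3 below it, and the log2 fold change was -0.06 ± 0.09 (SE), with a 95% interval of -0.26 to 0.13 (adjusted p = 0.683 by edgeR).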
